A study of Mus musculus with 16 samples.

Results

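The genes described here make, break down and use heme in mouse liver: the synthesis enzymes Alas1, Alad, Uros, Urod, Cpox, Ppox and Fech, the heme oxygenase Hmox1, and Por, which codes for cytochrome P450 reductase. They are 9 genes chosen by name from the 53465 genes of the count table, and all 9 were among the 14998 genes with enough counts to be tested. The question put to them is whether the supply of heme and of electrons, as mRNA, follows the induction of cytochrome P450 genes. Liver RNA came from C57BL/6 mice in 4 groups of 4 mice each: high-fat diet with perfluorooctanoic acid (HFD_PFOA), high-fat diet with vehicle (HFD_vehicle), control diet with PFOA (CD_PFOA) and control diet with vehicle (CD_vehicle). Each diet was eaten for 16 weeks before treatment, PFOA or vehicle was then given for 8 weeks, and the mice were 29 to 30 weeks old. Neither the PFOA dose nor the animals' sex is stated in the labels. Each library is a separate mouse.

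Heme is built in a chain of enzymes that starts and ends in the mitochondrion. Alas1 makes aminolevulinic acid in the first and rate-limiting step of the liver, and heme itself represses Alas1. P450 enzymes hold heme at their active site, and in the endoplasmic reticulum they take electrons from NADPH through Por. PFOA is a perfluorinated surfactant known in rodent liver as an activator of the nuclear receptor PPARA.

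Por and Cpox were higher with PFOA on both diets, while Alas1 was called higher on the control diet but not on the high-fat diet, a difference between diets that did not pass its own test. Of the 9 genes, 2 were called with PFOA on the high-fat diet at an edgeR adjusted p under 0.05, Por and Cpox, both higher. In that comparison 16.5% of all tested genes were called, 8.60% higher and 7.91% lower. On the control diet 4 of the 9 were called, Por, Alas1 and Cpox higher and Urod lower, where 24.4% of all tested genes were called, 11.8% higher and 12.6% lower. The median log2 fold change of the 9 genes was 0.16 on the high-fat diet and −0.07 on the control diet, against 0.01 and −0.00 over all genes tested. Levels are counts per 1e+06 (CPM) of the scaled library, given as mean ± SD over 4 mice unless single mice are listed.

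**Figure D1:**
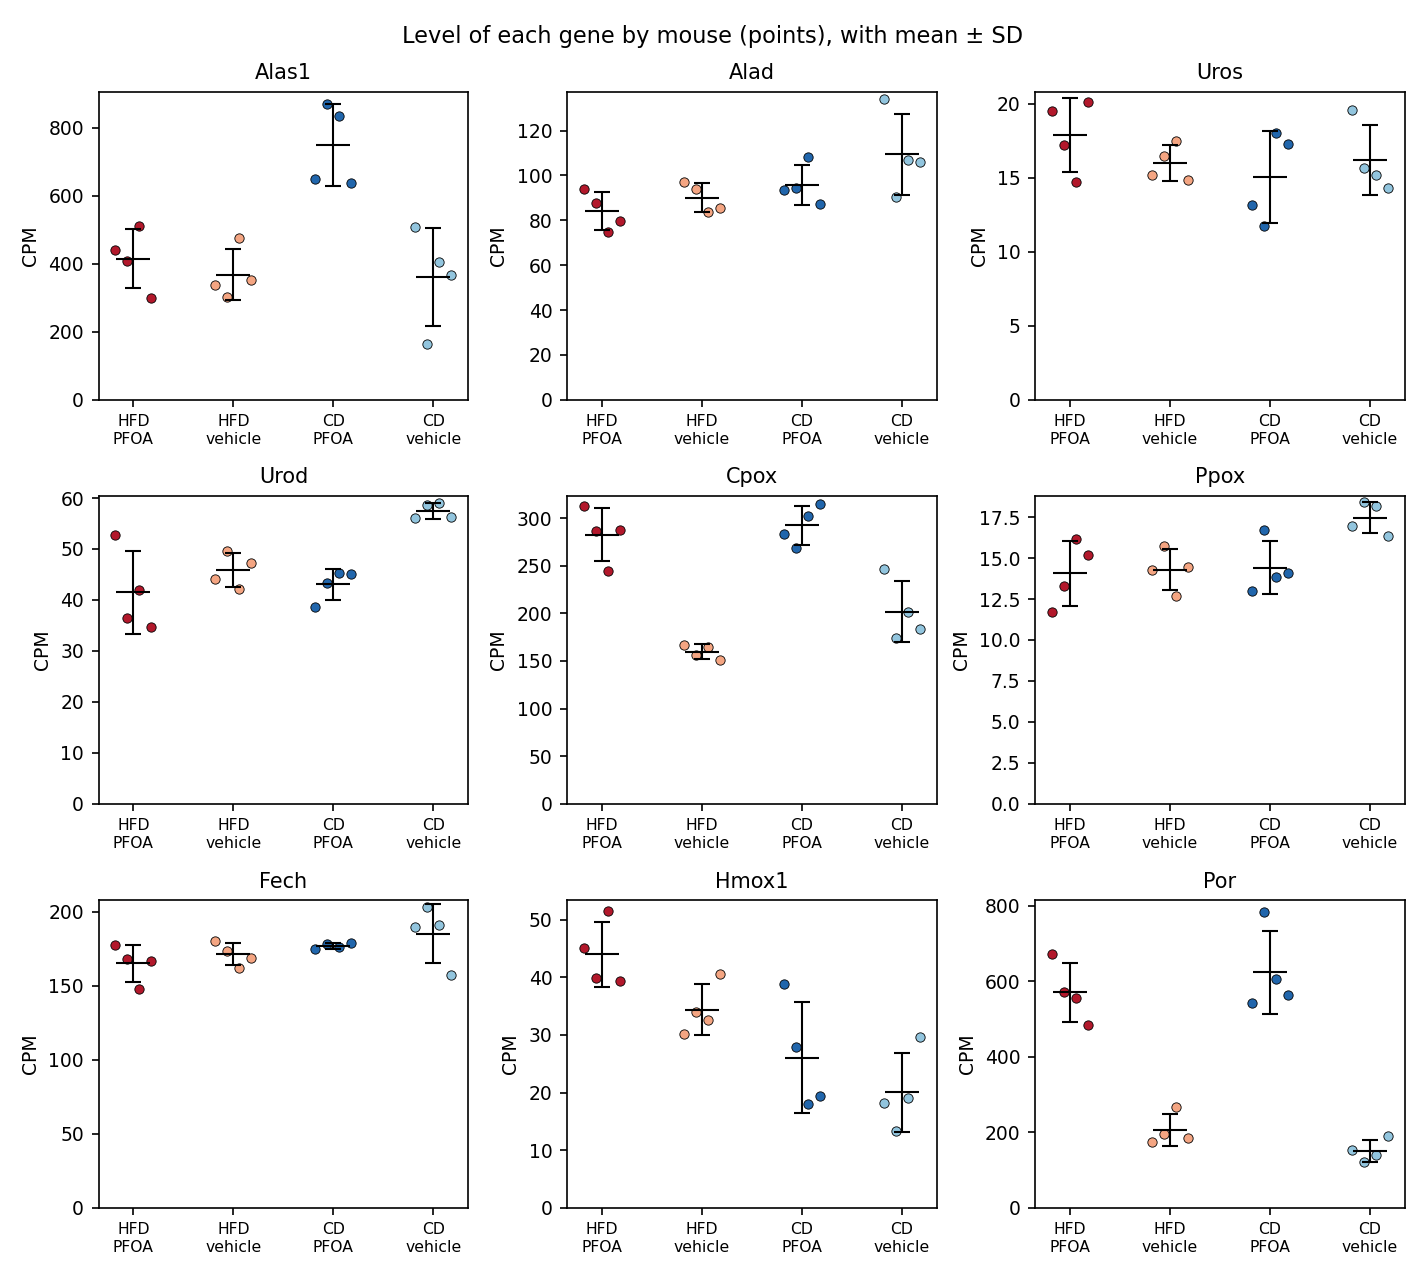
Level of each of the 9 genes in CPM (vertical axes, starting at 0) in each mouse of the 4 groups. Points are mice, the long bar is the mean and the whiskers are the SD of 4 mice. Por and Cpox are higher in every PFOA mouse than in any vehicle mouse of the same diet, and Alas1 is highest in the 4 CD_PFOA mice.

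Alas1, on chromosome 9 (chr9:106233455-106248654, minus strand, GRCm38, GENCODE M21), was at 441, 407.5, 509.8 and 300.0 CPM in the HFD_PFOA mice, against 338, 303, 476 and 353.5 CPM in the HFD_vehicle mice. These groups overlapped. The log2 fold change was 0.17 ± 0.24 (SE), with a 95% interval of −0.33 to 0.67 and an edgeR adjusted p of 0.711. In control-diet mice Alas1 was at 649.7, 869.5, 833 and 638 CPM in the CD_PFOA mice, against 507, 164, 406 and 368 CPM in the CD_vehicle mice. Here the groups did not overlap, and CD_vehicle mouse 2 was far below the other 3.

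The means on the control diet were 748 ± 121 CPM in CD_PFOA and 361 ± 144 CPM in CD_vehicle, a log2 fold change of 1.05 ± 0.24, or 2.07-fold, with an edgeR adjusted p of 0.00316. Leaving out any 1 of the 16 mice left the call in place, with a log2 fold change of 0.81 without CD_vehicle mouse 2 and 1.26 without CD_vehicle mouse 1. All 4 HFD_PFOA mice lay below all 4 CD_PFOA mice in Alas1, a log2 difference of −0.85 ± 0.24 that was not called (edgeR adjusted p 0.174). The interaction, the PFOA effect on the high-fat diet minus that on the control diet, was −0.88 ± 0.34 with an unadjusted p of 0.0182 and an edgeR adjusted p of 0.307. The diets are therefore not shown to differ in their Alas1 response.

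The RefSeq table gives a pair of start sites for Alas1. In the 250 bases before the downstream one lies the palindrome of the nuclear respiratory factor NRF1, a regulator of genes for mitochondrial proteins. It is shown in capitals with 10 bases on each side (minus strand, GRCm38.p6, chr9:106247906-106247935).
Alas1: cgcacccaagGCGCATGCGCggcggtcact
The same letters were found in 0.782% of the 32851 promoter windows of the same length, and in 1 of the 10 windows of these genes. The stretch lies within an exon of another Alas1 transcript in GENCODE M21. Nrf1 itself, named here after its values were seen, had a log2 fold change with PFOA of 0.18 on the high-fat diet, not called. On the control diet it fell by 0.68 (edgeR adjusted p 0.00557). The part of Nrf1 in the Alas1 levels was not tested.

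Among the genes named here are Dbp, one of the 5 whose levels were most like those of Por, and Nr1d1, of the list of heme gene regulators, both known to follow the daily clock. No list of clock genes was tested. Dbp, a transcription factor, was at 22.5 ± 5.83 CPM in HFD_PFOA and 4.06 ± 1.36 CPM in HFD_vehicle, and at 30.4 ± 8.93 CPM in CD_PFOA and 1.33 ± 1.06 CPM in CD_vehicle. Its log2 fold changes were 2.48 on the high-fat diet and 4.52 on the control diet (edgeR adjusted p 5.42e-05 and 9.95e-08). Dbp was picked because its levels followed those of Por, which was itself higher with PFOA on both diets. A difference of Dbp with PFOA was thus built into the choice, and these adjusted p carry no separate weight. Nr1d1, a clock repressor that binds heme, was at 112 ± 7.46 CPM in HFD_PFOA and 72.2 ± 3.32 CPM in HFD_vehicle, and at 124 ± 22.8 CPM in CD_PFOA and 48.1 ± 23.1 CPM in CD_vehicle. Its log2 fold change was 0.63 on the high-fat diet, not called (edgeR adjusted p 0.0535), and 1.37 on the control diet (edgeR adjusted p 1.09e-04). Alas1 on the high-fat diet had a log2 fold change of 0.17, far from a call (edgeR adjusted p 0.711). Alas1 is itself known to cycle over the day in rodent liver. The labels do not state the hour at which each mouse was killed, and its part in these results was not tested.

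Alad and Uros, enzymes of the middle of the chain, were not called with PFOA on either diet. Alad, which joins a pair of aminolevulinic acid molecules into porphobilinogen, ranged from 74.7 to 108 CPM in the 8 PFOA mice and from 83.7 to 134 CPM in the 8 vehicle mice. Its log2 fold change was −0.10 (95% interval −0.33 to 0.13) on the high-fat diet and −0.19 (−0.42 to 0.04) on the control diet. Uros, which closes the porphyrin ring, ranged from 11.7 to 20.1 CPM in PFOA mice and from 14.3 to 19.6 CPM in vehicle mice. Its log2 fold changes were 0.16 (95% interval −0.15 to 0.47) on the high-fat diet and −0.11 (−0.42 to 0.20) on the control diet.

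Urod (chr4:116989965-116994413, minus strand), which trims the side chains of uroporphyrinogen, was the single gene of the 9 called lower with PFOA, and that on the control diet. On the high-fat diet it was at 52.8, 36.5, 42.0 and 34.8 CPM in the HFD_PFOA mice, against 44.2, 49.7, 42.1 and 47.2 CPM in the HFD_vehicle mice. The groups overlapped and the log2 fold change was −0.14 (95% interval −0.37 to 0.09). Control-diet levels were 38.7, 43.4, 45.3 and 45.1 CPM in the CD_PFOA mice, against 56.0, 58.7, 59.1 and 56.3 CPM in the CD_vehicle mice, with no overlap. The log2 fold change was −0.42 ± 0.11, with an edgeR adjusted p of 0.00850, and the difference between diets was 0.27 with an edgeR adjusted p of 0.556. Under vehicle alone Urod was at 45.8 ± 3.34 CPM in HFD_vehicle and 57.5 ± 1.58 CPM in CD_vehicle, a log2 difference of −0.33 that was not called (edgeR adjusted p 0.0632).

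The Urod promoter is printed as that of the gene that fell. These are the 250 bases before its RefSeq start (minus strand, GRCm38.p6, chr4:116994414-116994663), with a CCAAT box, an E-box CACGTG and a GC box, read on either strand, in capitals.
Urod: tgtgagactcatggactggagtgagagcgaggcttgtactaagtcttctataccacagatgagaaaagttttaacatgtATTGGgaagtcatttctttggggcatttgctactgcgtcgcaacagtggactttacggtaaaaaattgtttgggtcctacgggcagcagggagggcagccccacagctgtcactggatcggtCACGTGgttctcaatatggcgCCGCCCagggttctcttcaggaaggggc
E-boxes of these letters were found in 6.02% of all windows and in 4 of the 10 windows of these genes, those of Alad, Urod and Uros. CCAAT boxes were in 33.8% of all windows and in 4 of the 10. The Alad windows overlap and share a CCAAT box, so these windows are not all separate.

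Cpox (chr16:58670292-58717636, plus strand), which makes protoporphyrinogen in the space between the mitochondrial membranes, was the synthesis enzyme called higher on both diets. On the high-fat diet it was at 312, 286, 244 and 287 CPM in the HFD_PFOA mice, against 167, 156, 165 and 151 CPM in the HFD_vehicle mice. Every HFD_PFOA mouse was above every HFD_vehicle mouse, and the log2 fold change was 0.82 ± 0.11, or 1.77-fold, with an edgeR adjusted p of 1.22e-05. Control-diet levels were 284, 268, 302 and 315 CPM in the CD_PFOA mice, against 246, 174, 202 and 184 CPM in the CD_vehicle mice. Again the groups did not overlap, and the log2 fold change was 0.54 ± 0.10, or 1.45-fold, with an edgeR adjusted p of 7.92e-04. The difference between the diets was 0.29 with an edgeR adjusted p of 0.498.

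The Cpox promoter is printed beside that result (plus strand, GRCm38.p6, chr16:58669958-58670207, the 250 bases before the RefSeq start).
Cpox: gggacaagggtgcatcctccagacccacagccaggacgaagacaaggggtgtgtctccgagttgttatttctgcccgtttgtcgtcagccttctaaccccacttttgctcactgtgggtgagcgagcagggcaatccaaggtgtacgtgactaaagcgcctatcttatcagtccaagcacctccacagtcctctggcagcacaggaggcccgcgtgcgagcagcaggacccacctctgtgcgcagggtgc
It holds none of the 10 motifs searched, and so has no capitals. Among them were the nuclear receptor site AGGTCA, found in 4607 of the 32851 windows, its direct repeat with 1 base between the copies (DR1), in 0.0335%, and its direct repeat with 4 bases between them (DR4), in 0.0152%. The antioxidant core TGACNNNGC was in 10.2% of all windows, the cAMP response element TGACGTCA in 1.55% and the TATA box TATAAA in 12.4%. None of these 6 was found in the 10 windows of the heme genes and Por. Both strands were searched, and the single site lies within the DR1 and DR4 motifs. Matches and their absence describe the letters of these short windows and nothing else.

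Ppox, which oxidises protoporphyrinogen, and Fech, which inserts the iron, were not called with PFOA on either diet. Ppox ranged from 11.7 to 16.7 CPM in PFOA mice and from 12.7 to 18.4 CPM in vehicle mice, with log2 fold changes of −0.02 on the high-fat diet and −0.28 on the control diet. Of its exonic bases 17.5% are shared with B4galt3 on the other strand, and the libraries are not stranded, so reads from the shared stretch cannot be told apart. Fech ranged from 148 to 179 CPM in PFOA mice and from 157 to 203 CPM in vehicle mice. Its 95% intervals were the narrowest of the 9 genes, from −0.23 to 0.13 on the high-fat diet and from −0.25 to 0.12 on the control diet.

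Hmox1 (chr8:75093621-75100589, plus strand), which opens the heme ring to biliverdin, iron and carbon monoxide, differed between diets under vehicle. It was at 30.2, 34.1, 32.6 and 40.6 CPM in the HFD_vehicle mice, against 18.2, 13.4, 19.0 and 29.7 CPM in the CD_vehicle mice. The groups did not overlap, and the log2 difference was 0.78 ± 0.22, or 1.71-fold, with an edgeR adjusted p of 0.0318. That call was lost in 6 of the 16 fits that left out 1 mouse, those without CD_vehicle 1, 2 or 3 and without HFD_vehicle 2, 3 or 4, with adjusted p between 0.0538 and 0.102. Under PFOA it was at 45.2, 39.9, 51.5 and 39.4 CPM in the HFD_PFOA mice, against 38.8, 28.0, 18.1 and 19.4 CPM in the CD_PFOA mice. The log2 difference there was 0.76 ± 0.22 with no overlap, but it was not called (edgeR adjusted p 0.192). PFOA against vehicle gave log2 fold changes in Hmox1 of 0.35 ± 0.22 on the high-fat diet and 0.38 ± 0.22 on the control diet, with edgeR adjusted p of 0.317 and 0.242.

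Macrophages of the liver also make heme oxygenase, and their markers differed between diets. Of 10 macrophage and Kupffer cell markers, 4 were called higher in HFD_vehicle than in CD_vehicle and none lower. Over all tested genes 5.19% were called higher and 5.21% lower. The median log2 difference of the markers was 0.62, against −0.03 over all genes tested. The 4 called markers were Cd68, Cd5l, Lyz2 and Csf1r, at log2 differences of 1.58, 1.24, 1.21 and 0.75. Of the 6 that were not called, Cd163 had a log2 difference of −1.66 (unadjusted p 0.00905, edgeR adjusted p 0.0715), Marco −0.79 and Timd4 −0.74, while Adgre1, Vsig4 and Clec4f had 0.94, 0.49 and 0.01. At an unadjusted edgeR p under 0.05 there were 5 of the 10, those called and Cd163, where 24.3% of all genes passed. The summed level of the 10 markers ran from 423 to 608 CPM in HFD_vehicle and from 211 to 408 CPM in CD_vehicle, and from 314 to 699.6 CPM in HFD_PFOA and from 177.5 to 446.5 CPM in CD_PFOA. None of the 10 was at 0. With PFOA 0 of the 10 were called on either diet by edgeR and by DESeq2. Over all tested genes edgeR called 16.5% on the high-fat diet and 24.4% on the control diet. At an unadjusted edgeR p under 0.05 there were 2 of the 10 on the high-fat diet and 1 on the control diet. Their part in the Hmox1 result was not tested, and in these bulk libraries more cells of a type and more RNA per cell cannot be told apart.

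**Figure D2:**
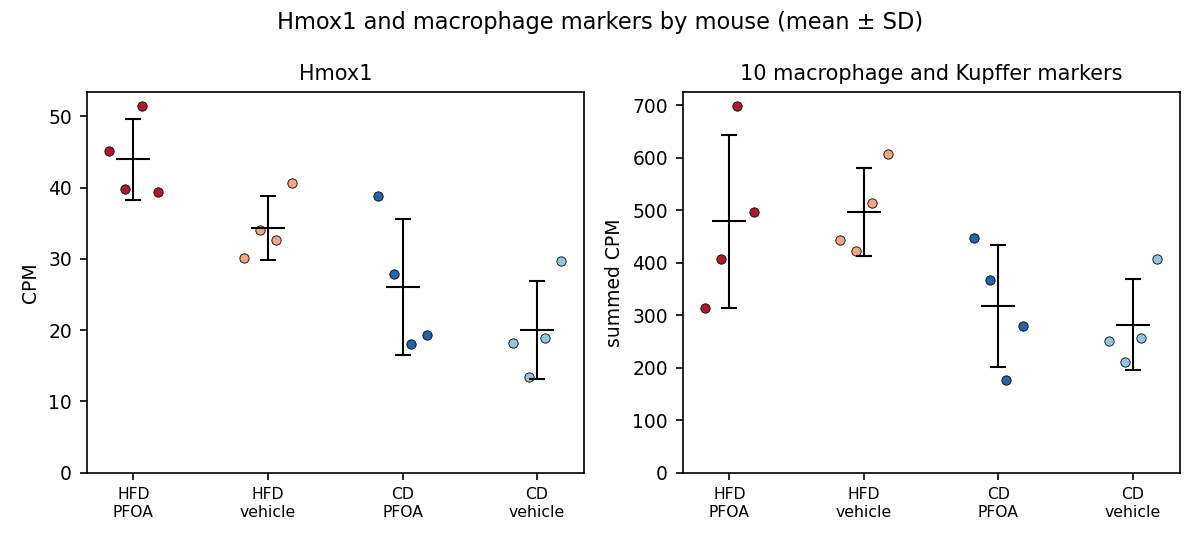
Hmox1 (left, CPM) and the summed level of 10 macrophage and Kupffer cell markers (right, summed CPM) in each mouse, with mean and SD of 4 mice. All HFD_vehicle mice lie above all CD_vehicle mice in both panels, at 30.2 to 40.6 against 13.4 to 29.7 CPM for Hmox1 and at 423 to 608 against 211 to 408 CPM for the markers.

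Por, on chromosome 5 (chr5:135670033-135735326, plus strand), had the largest fold change with PFOA of the 9 genes on both diets. It was at 673, 570.3, 556 and 484 CPM in the HFD_PFOA mice, against 174.5, 195, 268 and 185 CPM in the HFD_vehicle mice. Control-diet levels were 541, 782, 606 and 563 CPM in the CD_PFOA mice, against 153, 121, 139 and 191 CPM in the CD_vehicle mice. No vehicle mouse on either diet reached the lowest PFOA mouse. The log2 fold change was 1.47 ± 0.16 on the high-fat diet, or 2.78-fold, with an edgeR adjusted p of 1.47e-06. It was 2.05 ± 0.16 on the control diet, or 4.13-fold, with an edgeR adjusted p of 1.66e-08. The difference between these was −0.57 ± 0.22 with an unadjusted p of 0.0179 and an edgeR adjusted p of 0.307. Under vehicle Por was at 205 ± 42.3 CPM in HFD_vehicle and 151 ± 29.6 CPM in CD_vehicle, a log2 difference of 0.44 that was not called by edgeR (adjusted p 0.0779) but was called by DESeq2 (adjusted p 0.0350).

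The part of the Por promoter window that holds no annotated exon is printed for this gene (plus strand, GRCm38.p6, chr5:135688895-135689035), with GC boxes GGGCGG of either strand in capitals. The RefSeq start that follows this window lies within the GENCODE M21 gene, whose first base is chr5:135670033.
Por: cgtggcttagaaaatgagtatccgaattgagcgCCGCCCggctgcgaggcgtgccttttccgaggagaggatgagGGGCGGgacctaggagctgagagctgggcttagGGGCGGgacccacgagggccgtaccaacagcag
The GC box is a common promoter element, found in 32.7% of all windows and in 6 of the 10 windows of these genes. Those 6 include the overlapping Alad windows, which share GC boxes.

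**Figure D3:**
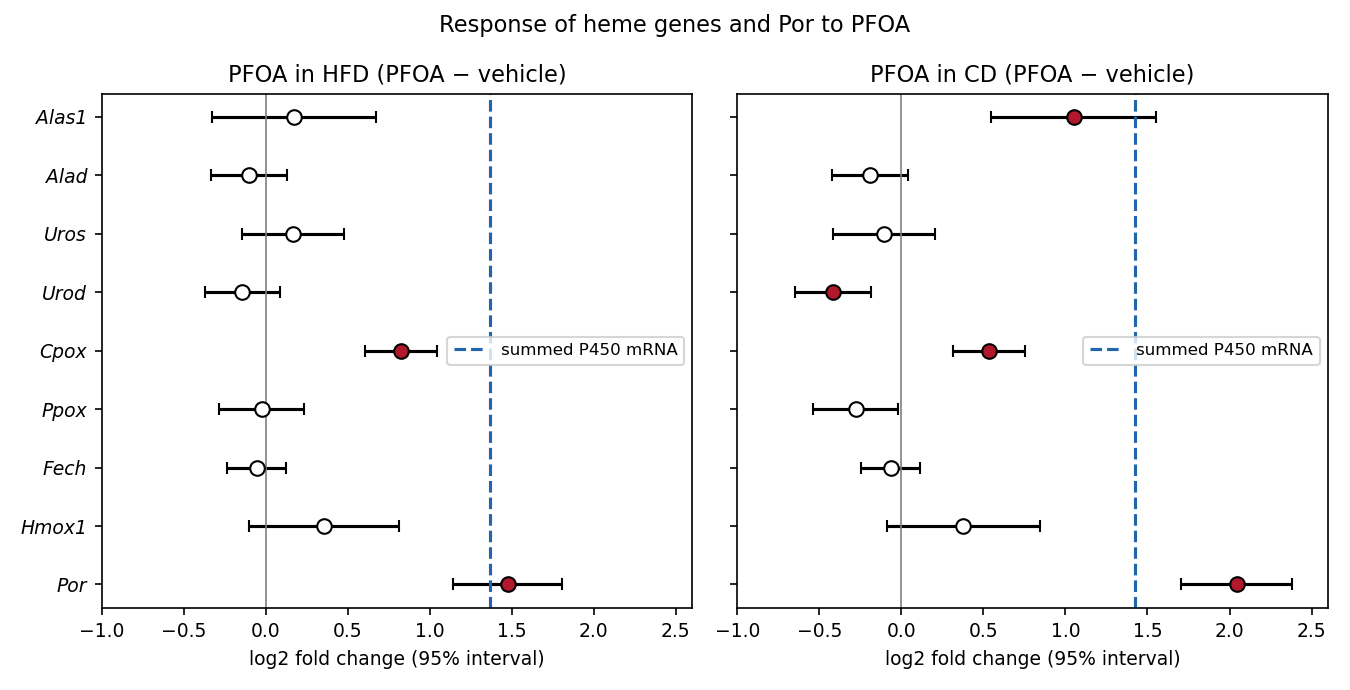
Log2 fold change with PFOA (PFOA minus vehicle) of each gene on the high-fat diet (left) and the control diet (right), with 95% intervals. Red points were called at an edgeR adjusted p under 0.05, white points were not, and the dashed line is the log2 difference of summed P450 mRNA, 1.37 on the high-fat diet and 1.43 on the control diet. The point of Por lies to the right of the line on both diets, and the points of the other 8 genes lie to its left.

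The P450 induction to set these against came from a few abundant genes. The table has 101 P450 genes, of which 71 were tested. With PFOA 19 were called higher and 13 lower on the high-fat diet, where 8.60% and 7.91% of all tested genes were. On the control diet 22 were called higher and 11 lower, where 11.8% and 12.6% of all tested genes were. Their median log2 fold changes were 0.22 on the high-fat diet and 0.19 on the control diet. Cyp4a14, a fatty acid hydroxylase and known PPARA target, was at 13400 ± 1250 CPM in HFD_PFOA and 619 ± 180 CPM in HFD_vehicle, and at 15250 ± 1550 CPM in CD_PFOA and 856 ± 143 CPM in CD_vehicle. Cyp4a10, its neighbour in function, rose 23.2-fold and 16.0-fold on the high-fat and the control diet (edgeR adjusted p 1.02e-12 and 4.05e-12), and Cyp4a31 rose by 7.27 and 7.34 on the log2 scale. Cyp2c29 rose 5.30-fold and 4.47-fold (edgeR adjusted p 5.11e-07 and 1.35e-06). Cyp3a11, a drug-metabolising enzyme, rose 1.49-fold on the high-fat diet and 4.18-fold on the control diet, with HFD_vehicle already at 3697 CPM and CD_vehicle at 1105 CPM. Cyp2e1, the most abundant P450 in CD_vehicle with 34.7% of the sum, had log2 fold changes with PFOA of 0.24 and 0.11, neither called, and Cyp2d26 had −0.16 and −0.04, neither called. Cyp4f14 fell by 3.03 and 3.84 on the log2 scale. Cyp4a genes are close relatives, and the labels do not state how shared reads were assigned among them.

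Summed over the 71 genes, P450 mRNA came to 45700 ± 5250 CPM in HFD_PFOA and 17740 ± 2110 CPM in HFD_vehicle, and to 49980 ± 4460 CPM in CD_PFOA and 18660 ± 2380 CPM in CD_vehicle. As a share of the TMM-scaled library, not of raw counts, this was 4.16% to 5.32% in HFD_PFOA and 1.6% to 2.08% in HFD_vehicle. It was 4.55% to 5.54% in CD_PFOA and 1.52% to 2.05% in CD_vehicle. The sum was 2.58-fold higher with PFOA on the high-fat diet and 2.69-fold higher on the control diet, with no overlap of mice. In an exact two-sided permutation test each had a p of 0.0286, the smallest that 4 mice against 4 allow. After adjustment over the 12 comparisons of the sum and its ratios it was 0.114. With as few comparisons at the smallest p as here, none could pass the adjustment, whatever the size of its difference. The 6 Cyp4a genes in the sum were at 21620 CPM in HFD_PFOA and 989.5 CPM in HFD_vehicle, and at 24000 CPM in CD_PFOA and 1523 CPM in CD_vehicle.

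Por per 1000 CPM of P450 was 12.5 ± 0.846 CPM in HFD_PFOA and 11.5 ± 1.05 CPM in HFD_vehicle, and 12.7 ± 3.26 CPM in CD_PFOA and 8.37 ± 2.93 CPM in CD_vehicle. The log2 differences were 0.12 ± 0.08 (exact permutation p 0.257) on the high-fat diet and 0.62 ± 0.29 (exact permutation p 0.0857) on the control diet. The ratio was thus not shown to differ between PFOA and vehicle mice on either diet. In CD_vehicle, mouse 4 had a ratio of 12.6 against 5.92 to 7.96 in the other 3, and it also had the lowest P450 sum of its group. With 1 mouse left out the control-diet log2 difference ran from 0.47 to 0.84, the highest without mouse 4. The CD_PFOA mice, at 9.76 to 17.2, all lay above those other 3 but not above mouse 4. Without the 6 Cyp4a genes in the sum, the log2 differences were 0.96 on the high-fat diet and 1.44 on the control diet.

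Alas1 per 1000 CPM of P450 was 9.14 ± 2.23 CPM in HFD_PFOA and 20.6 ± 2.39 CPM in HFD_vehicle. It ran from 7.03 to 12.3 in the HFD_PFOA mice and from 17.6 to 22.9 in the HFD_vehicle mice, without overlap. The log2 difference was −1.20 ± 0.19, with an exact permutation p of 0.0286 and 0.114 after adjustment. The p of 0.0286 is again the smallest possible, so no size of difference could have passed the adjustment. Without the Cyp4a genes it was −0.35. On the control diet the ratio was 15.2 ± 3.71 CPM in CD_PFOA and 19.8 ± 8.25 CPM in CD_vehicle, a log2 difference of −0.28 ± 0.44 (exact permutation p 0.571). CD_vehicle mouse 2 was at 7.98 against 20.5 to 26.5 in the other 3, and without it the difference was −0.67. Over all fits that left out 1 mouse the difference ran from −0.67 to −0.09. That control-diet difference also turned with the genes in the sum, to 0.54 without the Cyp4a genes, when the P450 sum itself was higher with PFOA by 0.61 on the log2 scale. Between the PFOA groups the log2 difference of the ratio, HFD_PFOA minus CD_PFOA, was −0.73 (exact permutation p 0.0571).

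**Figure D4:**
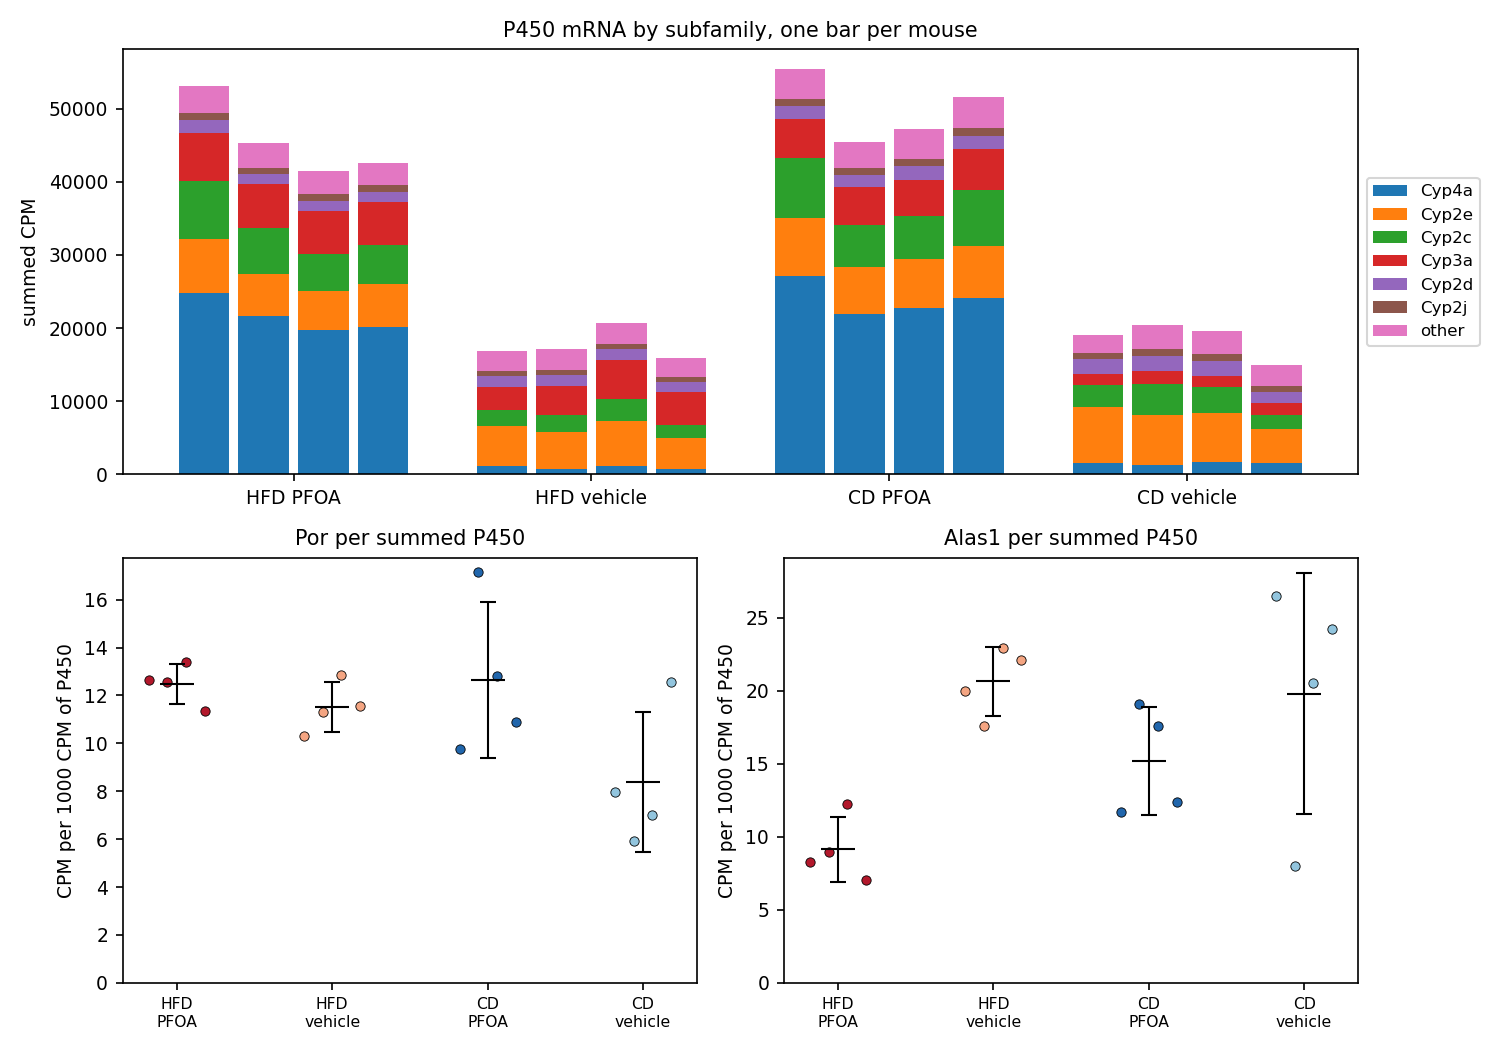
Summed P450 mRNA in CPM, stacked by subfamily with one bar per mouse (top), and Por (lower left) and Alas1 (lower right) in CPM per 1000 CPM of summed P450, with mean and SD of 4 mice. The PFOA bars reach 41555 to 55438 CPM and the vehicle bars 15182 to 20798 CPM, and the mean Alas1 ratio is lowest in HFD_PFOA at 9.14.

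By group mean per kilobase of exon, the order of the genes differed between PFOA and vehicle. Por led at 142 ± 19.4 CPM per kb in HFD_PFOA and was the second at 51.1 ± 10.5 CPM per kb in HFD_vehicle. It also led at 155 ± 27.2 CPM per kb in CD_PFOA and was the third at 37.5 ± 7.36 CPM per kb in CD_vehicle. Alas1 came second in both PFOA groups, at 67.2 ± 14.2 CPM per kb in HFD_PFOA and 121 ± 19.5 CPM per kb in CD_PFOA, where its spread met that of Por. In HFD_vehicle the first 3, Alas1, Por and Alad, lay within their SDs of each other. In CD_vehicle the SD range of Alas1 met those of Alad and Por, and that of Por met that of Cpox (30.25 ± 4.81 CPM per kb). The third place of Por in CD_vehicle is thus not a separate one. Alad and Cpox met in both PFOA groups. Cpox, Urod, Hmox1 and Fech came after Alad in every group. Uros and Ppox were the lowest in all 4 groups, between 3.12 and 5.0 CPM per kb.

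Between the diets, 2 of the 9 genes were called under vehicle and 0 under PFOA. Under PFOA 0 of the 9 were called between the diets by edgeR and by DESeq2, where 0.0600% of all tested genes were called by edgeR. At an unadjusted p under 0.05 there were 2, Alas1 lower and Hmox1 higher, where 11.1% of all genes passed. Under vehicle 2 were called, Hmox1 higher and Cpox lower, where 10.4% of all tested genes were called, 5.19% higher and 5.21% lower. At an unadjusted p under 0.05 there were 6, Hmox1 and Por higher and Alad, Urod, Cpox and Ppox lower, where 24.3% of all genes passed. Cpox was at 159.6 ± 7.64 CPM in HFD_vehicle and 201.5 ± 32.1 CPM in CD_vehicle, a log2 difference of −0.34 ± 0.11 (edgeR adjusted p 0.0469) that was lost under 4 of 5 other ways of fitting the data. It was also lost in 12 of the 16 fits that left out 1 mouse, with adjusted p between 0.0523 and 0.134, and held only without CD_vehicle 2 or 4 or HFD_PFOA 1 or 3. The median log2 difference of the 9 genes under vehicle was −0.11, against −0.03 over all genes. Hepatocyte markers were lower in the same comparison, with 5 of 8 called lower in HFD_vehicle than in CD_vehicle, none higher and a median log2 difference of −0.58. Their part in the diet results was not tested. In the interaction 0 were called by edgeR and by DESeq2, where 0.207% of all genes were called by edgeR. At an unadjusted p under 0.05 there were 2, Alas1 and Por, where 10.9% of all genes passed.

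Of 16 genes for heme transport and import into mitochondria, 4 were called higher and 1 lower with PFOA on the high-fat diet, and 6 higher and 3 lower on the control diet. Median log2 fold changes were 0.22 and 0.15. For this list and those that follow, the share called over all tested genes was 16.5% on the high-fat diet and 24.4% on the control diet. Flvcr2, a membrane carrier linked to heme and choline transport, was at 13.6 ± 3.05 CPM in HFD_PFOA and 4.74 ± 0.454 CPM in HFD_vehicle, a 2.85-fold rise (edgeR adjusted p 3.92e-06). In control-diet mice it was at 15.2 ± 1.89 CPM in CD_PFOA and 2.45 ± 0.411 CPM in CD_vehicle, a 6.20-fold rise (edgeR adjusted p 3.26e-09). Slc48a1, which moves heme out of lysosomes, rose by 0.57 and 0.83 on the log2 scale on the high-fat and the control diet. Abcg2, an exporter of porphyrins and drugs, rose by 0.69 and 0.70. Fam210b, a mitochondrial protein tied to heme synthesis in red cell precursors, fell by 0.46 and 0.40.

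Among 10 genes for heme breakdown and heme binding, 3 were called higher and 0 lower on the high-fat diet and 3 higher and 1 lower on the control diet, with medians of 0.01 and −0.11. Fabp1, the liver fatty acid binding protein that also binds heme and is a PPARA target, rose by 1.35 and 0.91 on the log2 scale. Ugt1a1, which conjugates bilirubin, rose by 0.63 and 0.67, and Blvrb, a biliverdin reductase, by 0.34 and 0.47. Hebp1, a heme-binding protein, had a log2 fold change of −0.22, not called, on the high-fat diet and fell by 0.60 on the control diet.

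A list of other electron partners of P450 and related reductases had 8 tested genes. With PFOA on the high-fat diet 0 were called by edgeR (1 by DESeq2, and 1 at an unadjusted edgeR p under 0.05). On the control diet 2 were called, the reductases Cyb5r1 and Nqo1, both higher, and 6 were not. Medians were 0.07 on the high-fat diet and −0.01 on the control diet. Cyb5r1, a cytochrome b5 reductase of low level, was at 11.3 CPM in HFD_PFOA and 6.17 CPM in HFD_vehicle, and at 13.5 CPM in CD_PFOA and 3.08 CPM in CD_vehicle (edgeR adjusted p 0.0747 and 1.13e-04). Nqo1, a quinone reductase, had log2 fold changes of 0.24, not called, and 0.87 (edgeR adjusted p 0.00145). Cyb5r3, the abundant cytochrome b5 reductase, was at 572 CPM in HFD_PFOA and 618 CPM in HFD_vehicle, and at 687 CPM in CD_PFOA and 916 CPM in CD_vehicle, called on neither diet. Cyb5b, the cytochrome b5 of the outer mitochondrial membrane, had log2 fold changes of 0.00 and −0.23, neither called.

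Regulators of heme genes, a list of 15, had 4 called higher and 3 lower on the high-fat diet and 8 higher and 4 lower on the control diet, with medians of 0.20 and 0.31. Ppara had a log2 fold change of 0.22, not called, on the high-fat diet and rose by 0.86 on the control diet. Nr1d2, a heme-binding relative of Nr1d1, rose by 0.50 and 1.01. Nfe2l1, a stress-responsive transcription factor, rose by 0.55 and 0.47. Ppargc1a, a coactivator known to raise Alas1 in fasted mouse liver and named here after its values were seen, fell by 0.76 and 1.14. Its relative Ppargc1b, of the same list and also named after its values were seen, rose by 1.30 and 1.61.

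Of 18 iron genes, 2 were called higher and 7 lower on each diet, with medians of −0.16 on the high-fat diet and −0.20 on the control diet. Trf, the serum iron carrier transferrin, was at 720.2 ± 93.6 CPM in HFD_PFOA and 1438 CPM in HFD_vehicle, and at 819 ± 187 CPM in CD_PFOA and 1398 CPM in CD_vehicle (edgeR adjusted p 4.98e-04 and 0.00334). Iscu, a scaffold for iron-sulphur clusters, fell by 0.52 and 0.36 on the log2 scale, and Steap3, an iron reductase, by 0.69 and 0.52. Tfr2, a sensor of transferrin on hepatocytes, had −0.24, not called, on the high-fat diet and fell by 0.76 on the control diet. Of 13 tested genes for other hemoproteins, 2 were called higher and 1 lower on each diet, with medians of 0.06 and −0.02. Over all tested genes 16.5% were called on the high-fat diet and 24.4% on the control diet. The gene called lower was Cygb on the high-fat diet, by 0.56, and Ido2 on the control diet, by 0.81. The higher pair on both diets was Tdo2, a tryptophan dioxygenase, which rose by 0.58 and 0.68, and Suox, the sulphite oxidase, which rose by 0.57 and 0.33.

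**Figure D5:**
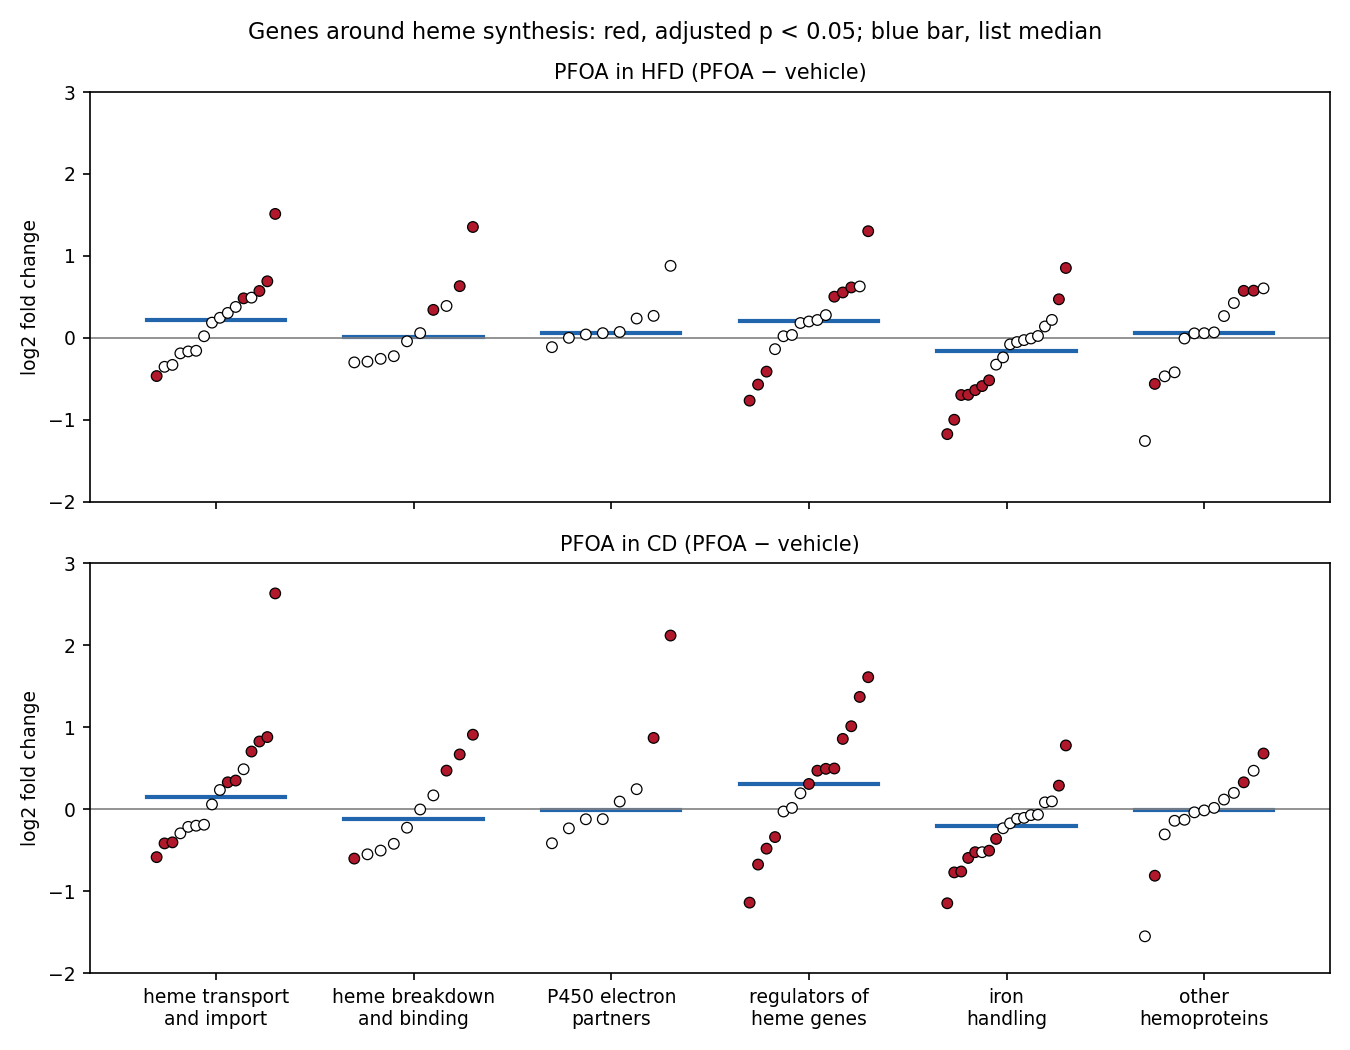
Log2 fold change with PFOA (PFOA minus vehicle) of every tested gene of 6 lists, on the high-fat diet (top) and the control diet (bottom). Red points were called at an edgeR adjusted p under 0.05, white points were not, and the blue bar is the list median. The highest point of the heme transport list is Flvcr2, at 1.51 and 2.63, and the iron list has 7 red points below 0 on each diet.

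The genes whose levels followed Por most closely over the 16 libraries, among those with a mean of at least 10 CPM over all 16, were Gpat3, Pex11a, Dbp, Tmed5 and D630045J12Rik, with Pearson r of 0.974, 0.973, 0.972, 0.969 and 0.969 on log2 CPM. For Alas1 they were Epb41, Jagn1, Tigar, Nop2 and Icmt, with r of 0.850, 0.843, 0.843, 0.840 and 0.834. Of the genes like Por, Dbp, Gpat3 and D630045J12Rik passed that minimum through the PFOA groups. D630045J12Rik was at 23.9 CPM in HFD_PFOA and 5.95 CPM in HFD_vehicle, and at 23.3 CPM in CD_PFOA and 5.24 CPM in CD_vehicle. Gpat3 was at 52.7 CPM in CD_PFOA and 5.45 CPM in CD_vehicle, and at 10.6 CPM in HFD_vehicle. The libraries fall into treatment groups, so these values describe shared patterns and carry no p.

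The libraries held 14456524 to 25778125 counts. All 8 hepatocyte markers were above 0, and all 8 were called lower with PFOA on both diets. Over all tested genes 7.91% were called lower on the high-fat diet and 12.6% on the control diet. The markers had median log2 fold changes of −0.58 on the high-fat diet and −0.92 on the control diet. Their summed level ran from 46820 to 57100 CPM in HFD_PFOA and from 73250 to 86780 CPM in HFD_vehicle, and from 52180 to 69670 CPM in CD_PFOA and from 90170 to 128700 CPM in CD_vehicle. The part of this shift in the results above was not tested. The red cell markers Slc4a1 and Epb42 had between 0 and 17 counts summed over the 4 libraries of a group.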

How the data were processed

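The authors deposited raw, whole-number counts by gene for 53465 genes in 16 libraries of flash-frozen liver, 25509 of them at 0 throughout. The submitters' processing notes name GRCm38 (mm10) as the build, featureCounts (Subread 1.6.0), STAR 2.5.2b, Trimmomatic 0.33 and bcl2fastq 2.20.0.422. RNA was extracted with a Qiagen kit and made into non-stranded libraries, per the labels' protocols. The notes and labels do not state the annotation release. Gene positions and exon lengths come from GENCODE M21, in which 53274 gene identifiers were found, and promoter letters from RefSeq windows (GRCm38.p6), present for 7 of the 9 genes.

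The filterByExpr filter of edgeR 4.0.16 left 14998 genes with 99.9% of counts. Libraries were scaled by TMM, and 1 quasi-likelihood model (glmQLFit, glmQLFTest) with group means (12 residual degrees of freedom, biological coefficient of variation 0.242) gave every contrast. Benjamini-Hochberg adjustment covered all tested genes, and genes were called at an adjusted p under 0.05. CPM are counts per 1e+06 of the scaled library. Summed P450 and its ratios were compared on the log2 scale by exact two-sided permutation over mice, adjusted over 12 comparisons. Depth ran from 14456524 to 25778125 counts, and reads carry no molecular identifiers. Libraries of a group differed by more than sampling noise (8.33 to 146 as chi-square over its degrees of freedom), so each mouse counted once. The labels give no batch.

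The 9 genes and the lists were chosen with earlier results of these data known. Beside the 9 genes, the text names up to 4 genes of each list by smallest p, the 6 P450 genes of highest CPM and the 5 genes most like Alas1 and Por. Ppargc1a, Ppargc1b, Nrf1 and Alas2 were picked after their values were seen. The alternatives were RLE size factors, library totals, no filter on low counts, only the 2 groups compared, DESeq2 1.42.0, leaving out each mouse, and other choices of genes in the P450 sum. The scripts were tested on simulated data.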

Additional observations from a re-analysis of the deposited data

How the results depend on the processing

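No paired analysis was possible because replicate numbers follow only the order of the records and pair no mice. With PFOA on the high-fat diet 2 to 3 of the 9 genes were called under every alternative, and on the control diet 4 to 5. Under vehicle, the number called between diets was 1 with RLE size factors and 1 with only the 2 groups compared, and ran from 0 to 3 over fits that left out 1 mouse, with 0 without CD_vehicle 1 or 3 or HFD_vehicle 2, 3 or 4. Under PFOA it was 2 with no filter on low counts (Alas1 lower, Hmox1 higher) and 1 with only the 2 groups compared (Alas1 lower), and the interaction had 1 with no filter (Alas1 lower). For the 9 genes, of 936 values of single genes 867 kept direction and call, 22 lost a call, 11 gained one, 36 uncalled ones changed sign and 0 called ones did. Cpox between diets under vehicle was lost with RLE (edgeR adjusted p 0.0509), library totals (0.467), no filter (0.0603) and 2 groups (0.133), and Por there was gained with library totals (0.00985) and no filter (0.0128). Library totals moved the median of all genes there to 0.19, against −0.03 with TMM. The cause of these changes was not tested.

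Summed P450 between diets under vehicle was 0.15 with library totals, against −0.07. The log2 difference of Alas1 per P450 with PFOA on the control diet was 0.18 without Cyp4a14, the P450 gene of highest CPM, and 0.54 without all Cyp4a genes, against −0.28. Por per P450 between diets under PFOA was −0.013 without Cyp4a14 and −0.0088 without all Cyp4a genes, against 0.01, and ran from −0.10 to 0.17 with 1 mouse left out. Alas1 per P450 between diets under vehicle ran from −0.20, without CD_vehicle 2, to 0.37. Leaving out mitochondrial P450 genes, chosen after seeing the data, changed no direction. The lowest of the 9 genes, Ppox and Uros, had at least 11.7 CPM in every mouse, and 4 mice a group limit the precision.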

Other observations

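Alas2, the red cell form of the first enzyme of heme synthesis, was counted in these livers above the globins. It was at 80.2 ± 8.15 CPM in HFD_PFOA and 72.3 ± 3.78 CPM in HFD_vehicle, and at 89.0 ± 8.21 CPM in CD_PFOA and 83.3 ± 23.5 CPM in CD_vehicle (SD, n = 4 each), and no contrast called it. Per kilobase of exon Alas2 was at 33.4 CPM in HFD_PFOA, 30.1 in HFD_vehicle, 37.1 in CD_PFOA and 34.7 in CD_vehicle. Hbb-bs, the most abundant of 4 globin genes, was at 19.0 CPM per kb in HFD_PFOA, 10.6 in HFD_vehicle, 4.88 in CD_PFOA and 11.4 in CD_vehicle. The exons of Alas2 share 12.9% of their bases with Apex2, which had 2389 counts over all libraries. Of 5 tested red cell genes 0 were called with PFOA on the high-fat diet by edgeR and by DESeq2 (1 at an unadjusted edgeR p under 0.05), and 1 on the control diet by edgeR, Hbb-bs, which fell by 1.22 on the log2 scale (edgeR adjusted p 0.0116). Summed, the 5 ran from 92.7 to 117 CPM in HFD_PFOA and from 80.9 to 94.7 CPM in HFD_vehicle, and from 87.5 to 110.2 CPM in CD_PFOA and from 72.8 to 122 CPM in CD_vehicle. In the comparison of diets under PFOA 1 of the 5 was called, Hbb-bs, higher in HFD_PFOA than in CD_PFOA by 1.96 on the log2 scale (edgeR adjusted p 0.0305). There 0.0600% of all tested genes were called. At an unadjusted edgeR p under 0.05 there were 4 of the 5, the 4 globins, each higher in HFD_PFOA, where 11.1% of all genes passed. The median log2 difference of the 5 was 1.18. Most of the sum of the 5 is Alas2. The 4 globins alone ran from 16.5 to 34.7 CPM in HFD_PFOA and from 11.4 to 18.8 CPM in HFD_vehicle, and from 3.98 to 11.6 CPM in CD_PFOA and from 4.67 to 20.6 CPM in CD_vehicle.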
